A study of Mus musculus with 28 samples.

Results

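The 10 genes described here, out of 28244 in the count matrix, were followed across 28 RNA-seq samples in 11 groups: the EGF receptor family members Egfr, Erbb2 and Erbb4, the FGF receptors Fgfr1, Fgfr2, Fgfr3 and Fgfr4, the growth factors Fgf2 and Hbegf, and the insulin-like growth factor receptor Igf1r. They were taken by gene symbol and not by a rule on measured values, but earlier results of these data were known when they were chosen. The series compared peripheral neural stem cells (pNSCs) of mouse tail, lung and dorsal root ganglion (DRG), which grew out as rare clusters, with brain neural stem cells (NSCs), with lung and tail cells, and with neural crest stem cells (NCSCs) of the DRG. The groups Tail-pNSC, Brain-NSC, Tail, Lung-pNSC and Lung held 2 samples each. The groups Sox2-GFP brain NSCs, Sox2-GFP lung pNSCs, Wnt1Cre-mTmG Tail pNSCs, Wnt1Cre-mTmG brain NSCs, Wnt1Cre-mTmG DRG pNSCs and DRG NCSCs held 3 each.

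The first 5 groups were taken to be the study's Nes-GFP experiment, in which Nestin regulatory elements drive GFP, although their labels do not name the reporter. GFP-positive lung and tail cells were sorted there to derive the pNSCs. Sox2-GFP is a knock-in reporter, and GFP-positive lung cells were again sorted to derive pNSCs. For the control brain NSCs the study's methods describe whole brain tissue grown over several passages and mention no sorting. Derivation and tissue of origin therefore cannot be told apart where pNSCs are set against brain NSCs. In the Wnt1Cre-mTmG mice Cre recombinase turns cells of neural crest origin from red to green fluorescence, and the pNSCs were red, unrecombined cells. The Lung-pNSC line came from adult mice of 4 to 6 weeks, the other pNSCs from pups at postnatal day 1 to 5, and the NCSCs from adult wild-type mice. The age behind the brain NSCs and the Lung and Tail cells is not given per group. The labels name the strain C57BL/6, whereas the study's methods describe CD1 and mixed CD1/C3H backgrounds. Clusters of pNSCs were picked singly and are usually clonal, so a pNSC group may stand for 1 clone. NSCs and pNSCs grew in medium holding 10 ng/mL EGF and 10 ng/mL basic FGF (the protein made by Fgf2), so every NSC and pNSC sample had ligands of Egfr and of the FGF receptors supplied. The medium of the NCSCs and any culture of the Lung and Tail cells are not given in the sources used here.

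EGF receptors are cell-surface tyrosine kinases that pair up when a ligand binds. Egfr binds EGF and Hbegf, Erbb4 binds neuregulins and Hbegf, Erbb2 has no ligand of its own and works as a partner, and Erbb3 binds neuregulins but has little kinase activity itself. FGF receptors bind FGFs together with heparan sulfate and, like EGF receptors, signal through the Ras-MAP kinase cascade. EGF and basic FGF are the mitogens used to keep neural stem cells dividing in culture.

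Of the members, 8 of 10 had an entry among 32851 RefSeq promoter windows (GRCm38.p6). Those of Egfr, Fgfr3 and Erbb2 are shown because Egfr and Fgfr3 were lower and Erbb2 higher in NCSCs than in brain NSCs. Erbb4 and Fgfr2, also lower there, and Fgf2, Igf1r and Hbegf, also higher, are not shown. Each line is the 250 bases upstream of the annotated start on the plus strand, with the GC box (GGGCGG, or CCGCCC on the other strand), a motif common in promoters without a TATA box, in capitals.
Egfr, chr11:16751953-16752202: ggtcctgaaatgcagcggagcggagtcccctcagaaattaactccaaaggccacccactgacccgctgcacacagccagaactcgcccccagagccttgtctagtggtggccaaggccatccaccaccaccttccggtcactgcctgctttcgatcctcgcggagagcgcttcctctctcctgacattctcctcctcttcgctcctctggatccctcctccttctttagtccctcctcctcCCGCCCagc
Fgfr3, chr5:33721474-33721723: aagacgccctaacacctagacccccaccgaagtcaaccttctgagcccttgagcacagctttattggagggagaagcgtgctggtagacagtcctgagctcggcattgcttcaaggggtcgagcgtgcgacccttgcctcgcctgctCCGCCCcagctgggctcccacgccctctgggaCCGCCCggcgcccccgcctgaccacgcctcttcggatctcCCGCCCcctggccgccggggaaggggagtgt
Erbb2, chr11:98412234-98412483: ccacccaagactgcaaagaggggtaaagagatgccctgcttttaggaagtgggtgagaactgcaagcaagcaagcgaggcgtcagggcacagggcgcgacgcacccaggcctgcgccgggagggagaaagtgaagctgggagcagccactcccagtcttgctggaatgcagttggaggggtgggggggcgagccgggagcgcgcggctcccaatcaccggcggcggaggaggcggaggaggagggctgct
The windows held 1, 3 and 0 GC boxes, against 1 or more in 32.7% of all 32851 windows of this length. Their GC content was 60.8%, 66.8% and 66.0%, with 11, 19 and 16 CpG dinucleotides, against medians of 52.4% and 6 over all windows. The letters are a description of the windows only. Windows picked in this way cannot tie GC boxes to the direction of a change.

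Total counts ran from 9808246 to 22637031 per sample, lowest in the Wnt1Cre-mTmG brain NSCs and DRG pNSCs. A count of 3, taken as the floor of detection, stood for 0.13 to 0.295 cpm (reads scaled to a common library size) depending on the sample. Levels below are TMM-scaled cpm on a single scale over the 28 samples, given as mean ± SD, and cpm per kilobase of exon where genes are compared with each other. The variance between replicates was 1.09 to 2.82 times the counting variance, except for DRG NCSCs replicate 3, which stood apart from the other two at 16.8 and 21 times. The study's figure legends call the replicates biological, but do not say whether they came from separate animals or cultures. The p-values therefore measure only the spread between these samples, which may be technical. NSC markers (Nes, Sox2, Olig2, Pax6, Sox1) summed to 2200 to 3450 cpm in the NSC and pNSC groups, against 80.5 to 84.9 in Tail and 291 to 316 in Lung. In DRG NCSCs they summed to 1370 to 1740 cpm, so this sum sets NSCs less apart from NCSCs than from tissue cells. That rests on Nes and Sox2, at 1285 and 225.5 cpm on average in DRG NCSCs against 1681 and 316.1 in Wnt1Cre-mTmG brain NSCs. The other markers did set them apart: Olig2, Pax6 and Sox1 were 14.9, 0.308 and 0.143 cpm against 1114, 33.3 and 44.9. The 5 epithelial markers (Epcam, Sftpc, Scgb1a1, Krt5, Krt14) summed to at most 0.344 cpm in NSC and pNSC samples, and to 3900 to 4000 in Tail and 24900 to 25500 in Lung. In such bulk samples fewer cells of a type and less RNA per cell cannot be told apart.

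Egfr (chromosome 11, 16752203 to 16913907, plus strand, GRCm38) was the most abundant of the EGF receptors in every NSC and pNSC group. Its level was 817 and 796 cpm in the Brain-NSC samples, 611, 618 and 610 in the Sox2-GFP brain NSCs and 503, 522 and 504 in the Wnt1Cre-mTmG brain NSCs. In pNSCs it was 730 and 738 cpm in Tail-pNSC, 561 and 559 in Lung-pNSC, 386, 384 and 390 in Sox2-GFP lung pNSCs, 746, 752 and 731 in Wnt1Cre-mTmG Tail pNSCs and 355, 361 and 368 in Wnt1Cre-mTmG DRG pNSCs. The 3 brain lines thus spanned 1.58-fold and the 8 NSC and pNSC groups 2.23-fold, and pNSC levels lay on both sides of the lowest brain line. Tail cells held 128 and 134 cpm and Lung cells 59.4 and 57.5. The lowest level was in DRG NCSCs, at 14.3, 14.5 and 12.4 cpm, far below every other sample. Tail-pNSC and Wnt1Cre-mTmG Tail pNSCs overlapped in this order, and no other neighbours did.

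Erbb2 (chromosome 11, 98412484 to 98437716, plus strand) ran the other way, with its 3 highest group means in Tail (144 ± 3.89 cpm), DRG NCSCs (105 ± 3.33) and Lung (71.4 ± 2.64). The NSC and pNSC groups lay between 21.7 and 54.0 cpm. Its count may be affected, in a direction not known, by Mien1, which overlaps its exons on the opposite strand. Whether htseq-count used strand is not given. Erbb4 (chromosome 1, 68031884 to 69108576, minus strand) was the member that varied most between brain lines, 4.69-fold. Its level was 101 and 99.9 cpm in Brain-NSC, 177, 183 and 173 in Sox2-GFP brain NSCs and 34.7, 42.2 and 36.7 in Wnt1Cre-mTmG brain NSCs. The pNSC groups fell between 33.7 (Tail-pNSC) and 90.7 cpm (Wnt1Cre-mTmG Tail pNSCs). Outside NSCs and pNSCs it was low but above the floor in Tail (1.46 and 2.62 cpm) and Lung (0.869 and 1.56). It was lowest in the DRG NCSCs, with 2, 6 and 11 counts.

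Among FGF receptors, Fgfr1 (chromosome 8, 25518759 to 25575718, plus strand) was the most even, with NSC and pNSC group means between 210 and 379 cpm. Its level was 224, 228 and 230 cpm in DRG NCSCs, which overlapped the 227, 229 and 220 cpm of the Sox2-GFP brain NSCs. Tail was highest at 536 and 516 cpm and Lung lowest at 102 and 93.5. Fgfr3 (chromosome 5, 33721724 to 33737068, plus strand) held 282 and 287 cpm in Brain-NSC, 388, 392 and 394 in Sox2-GFP brain NSCs and 182, 196 and 192 in Wnt1Cre-mTmG brain NSCs. It was 134 and 141 cpm in Lung-pNSC and 114, 117 and 117 in Sox2-GFP lung pNSCs, both below every other NSC and pNSC group, and 392, 387 and 393 in Wnt1Cre-mTmG Tail pNSCs. In DRG NCSCs it was 0.232, 0.473 and 1.34 cpm, with the sample that stands apart the highest. Fgfr1 and Fgfr3 each share exonic bases with a gene on the opposite strand (Gm16159 and G630022F23Rik), so their counts may be affected too.

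Fgfr2 (chromosome 7, 130162451 to 130266808, minus strand), a receptor known for its splice forms in epithelium and mesenchyme, was highest in Tail (332 and 326 cpm) and Lung (206 and 205). NSC and pNSC group means ran from 13.3 cpm in Wnt1Cre-mTmG DRG pNSCs to 64.2 in Wnt1Cre-mTmG Tail pNSCs, whereas the 3 brain lines differed by 1.14-fold only, the smallest range of the receptors tested in all experiments. DRG NCSCs held 2.22, 2.65 and 1.98 cpm. Fgfr4 (chromosome 13, 55152818 to 55168759, plus strand) was found in Lung at 87.9 and 80.1 cpm and in Tail at 13.6 and 12.2. Every other sample held between 0 and 7 counts, at or near the floor, and the gene did not pass the filter on low counts in the Wnt1Cre-mTmG experiment.

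**Figure D1:**
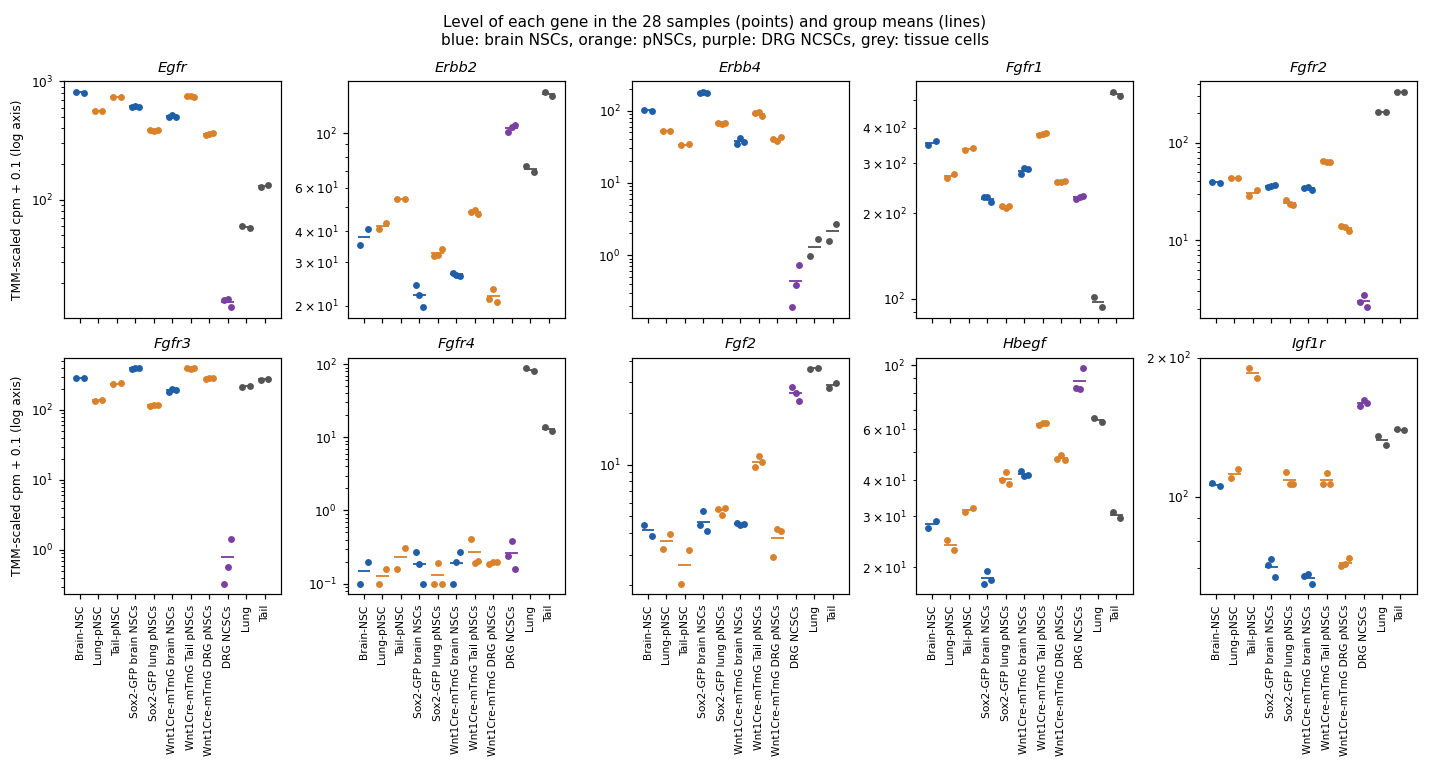
Level of the 10 genes in each of the 28 samples (points) and the group means (lines), as TMM-scaled cpm plus 0.1 on a log axis whose range differs between panels. Egfr, Erbb4 and Fgfr3 were lowest in DRG NCSCs (13.7, 0.339 and 0.682 cpm on average). Outside Lung and Tail, Fgfr4 was at or near the floor, with at most 7 counts in a sample.

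Of the ligands, Fgf2 (chromosome 3, 37348477 to 37410106, plus strand), the gene for basic FGF, was low in NSCs and pNSCs, whose medium holds this factor. Its level was 4.36 and 3.75 cpm in Brain-NSC, 1.94 and 3.09 in Tail-pNSC and 9.57, 11.1 and 10.2 in Wnt1Cre-mTmG Tail pNSCs, the highest of the NSC and pNSC groups. It was 28.2, 25.9 and 23.2 cpm in DRG NCSCs, 27.5 and 29.7 in Tail and 35.8 and 36.0 in Lung. The 3 brain lines overlapped one another, with means 1.12-fold apart. Nudt6 on the opposite strand and Gm43439 on the same strand share exonic bases with Fgf2, so a level this low is uncertain. Hbegf, whose membrane-bound protein is shed by metalloproteases and binds Egfr and Erbb4, was 83.6, 82.4 and 97.5 cpm in DRG NCSCs, above every other sample. The lowest values were 17.5, 19.2 and 18.0 cpm in the Sox2-GFP brain NSCs, and the 3 brain lines spanned 2.3-fold. Igf1r (chromosome 7, 67952257 to 68233668, plus strand), which binds insulin-like growth factors, varied least of the 10, with group means from 66.6 to 185 cpm (2.78-fold). It was highest in Tail-pNSC at 190 and 180 cpm.

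Per kilobase of exon, the make-up of each receptor family differed between groups. In NSCs and pNSCs Egfr made 74.2% to 84.5% of the summed EGF receptor level, with Erbb2 at 5.78% to 13.6% and Erbb4 at 3.5% to 19.7%. Erbb3 stayed at or below 0.242% there. In DRG NCSCs Egfr made 0.684% ± 0.0115 (n = 3) and Erbb3 87.9% ± 1.12, from a level of 936 ± 76.8 cpm. Tail and Lung were mixed, with Egfr at 20.3% and 16.0%, Erbb2 at 48.5% and 42.6% and Erbb3 at 30.9% and 41.1%.

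For the FGF receptors, Fgfr1 and Fgfr3 together made most of the level in NSCs and pNSCs. Fgfr1 gave 45.7% and Fgfr3 49.5% in Brain-NSC, but 28.6% and 67.0% in Sox2-GFP brain NSCs and 49.4% and 44.8% in Wnt1Cre-mTmG brain NSCs. Both lung pNSC groups had more Fgfr1 than Fgfr3 (54.3% against 37.3% in Lung-pNSC, 53.9% against 40.1% in Sox2-GFP lung pNSCs). So did Tail-pNSC, by less (49.3% against 46.3%). The reverse held in Wnt1Cre-mTmG Tail pNSCs (39.2% against 54.4%) and Wnt1Cre-mTmG DRG pNSCs (39.7% against 58.3%). In DRG NCSCs Fgfr1 made 98.5% ± 0.253, and in Lung the 4 receptors made 11.9%, 24.1%, 36.1% and 27.9% in the order of their numbers.

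**Figure D2:**
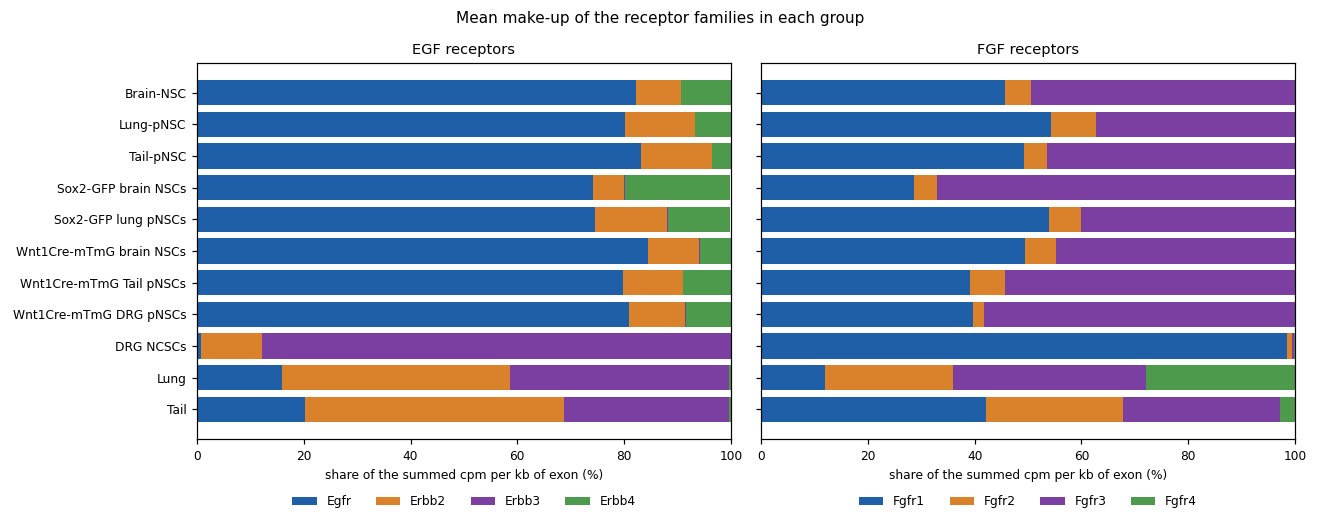
Mean share of each receptor in the summed cpm per kilobase of exon of its family, in percent, for the 11 groups. Egfr made 74.2% to 84.5% of the EGF receptors in the NSC and pNSC groups and 0.684% in DRG NCSCs, where Erbb3 made 87.9% and Fgfr1 made 98.5% of the FGF receptors.

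The first question was how far pNSCs matched brain NSCs of the same experiment. A gene was called where the edgeR quasi-likelihood test gave a Benjamini-Hochberg adjusted p below 0.05 over all genes and a log2 fold change of at least 1 in size. Fold changes are given ± SE. That SE is derived from the fold change and the test statistic, whose spread is moderated over genes. It can be smaller than the spread between a gene's own replicates. In Tail-pNSC against Brain-NSC, none of the 10 genes was called higher and 1 lower, against 4.31% and 6.59% of the 16948 genes tested. That gene was Erbb4, at 33.1 and 34.3 cpm against 101 and 99.9 (log2 fold change -1.57 ± 0.0644, adjusted p = 3.51e-129). Igf1r was 1.75-fold higher (0.81 ± 0.0386, adjusted p = 7.14e-95), below the limit on size. Fgf2 differed by -0.67 ± 0.207, and by -1.06 without Tail-pNSC replicate 2, which would add it to the calls. Egfr differed by -0.14 ± 0.0314 and Fgfr1 by -0.07 ± 0.0341, the latter with adjusted p = 0.0812.

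In Lung-pNSC against Brain-NSC again none was called higher and 1 lower (background 4.56% and 4.15%). Fgfr3 was at 134 and 141 cpm against 282 and 287, a log2 fold change of -1.06 ± 0.0367 with adjusted p = 2.91e-180. Erbb4, at 51.4 and 51.7 cpm, came close to the limit with -0.97 ± 0.0601. In the Sox2-GFP experiment Fgfr3 and Erbb4 were both called lower in lung pNSCs than in brain NSCs, by -1.75 ± 0.0236 and -1.42 ± 0.0295, and Hbegf was called higher. Hbegf was 39.9, 42.6 and 38.8 cpm against 17.5, 19.2 and 18.0 (1.14 ± 0.0555, adjusted p = 1.54e-92). This made 1 member higher and 2 lower against a background of 5.76% and 9.99% of 16234 genes. Egfr was lower in both lung lines without reaching the limit, by -0.53 ± 0.0317 and -0.67 ± 0.0193.

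In Wnt1Cre-mTmG Tail pNSCs 3 members were called higher than in their brain NSCs and none lower (background 9.16% and 9.05% of 14448 genes). All 9 members that passed the filter had a positive fold change. Erbb4 was 92.6, 94.1 and 85.3 cpm against 34.7, 42.2 and 36.7 (1.27 ± 0.0868, adjusted p = 7.72e-10). Fgfr3 was 2.06-fold higher (1.04 ± 0.0678, adjusted p = 3.91e-10) and Fgf2 2.34-fold (1.23 ± 0.135, adjusted p = 3.79e-07). The other 6 were 0.43 to 0.92 higher on the log2 scale, under the limit on size. The members' median was 0.85 beside 0.004 over all genes. Fibroblast markers moved with this group: Col1a1, Col3a1, Dcn and Lum summed to 305 to 317 cpm in the tail pNSCs and 7.01 to 8.31 in the brain NSCs, with none of the 4 at the floor in either. Muscle markers (Myh11, Des, Acta2) did so too, at 57.2 to 58.8 cpm against 8.90 to 11.6, with none of the 3 at the floor in the tail pNSCs and 1, Des, in the brain NSCs. The part of both lists in the result was not tested.

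In Wnt1Cre-mTmG DRG pNSCs none was called higher and 1 lower than in the brain NSCs (background 3.12% and 6.41%). Fgfr2 was 13.9, 13.5 and 12.4 cpm against 34.4, 35.2 and 32.8, a log2 fold change of -1.36 ± 0.0745 with adjusted p = 1.21e-10. Fgfr3 was 1.48-fold higher (0.56 ± 0.0692) and Egfr 1.41-fold lower (-0.50 ± 0.0384), both under the limit on size. Erbb4 samples overlapped between the groups (0.10 ± 0.0972, adjusted p = 0.422).

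**Figure D3:**
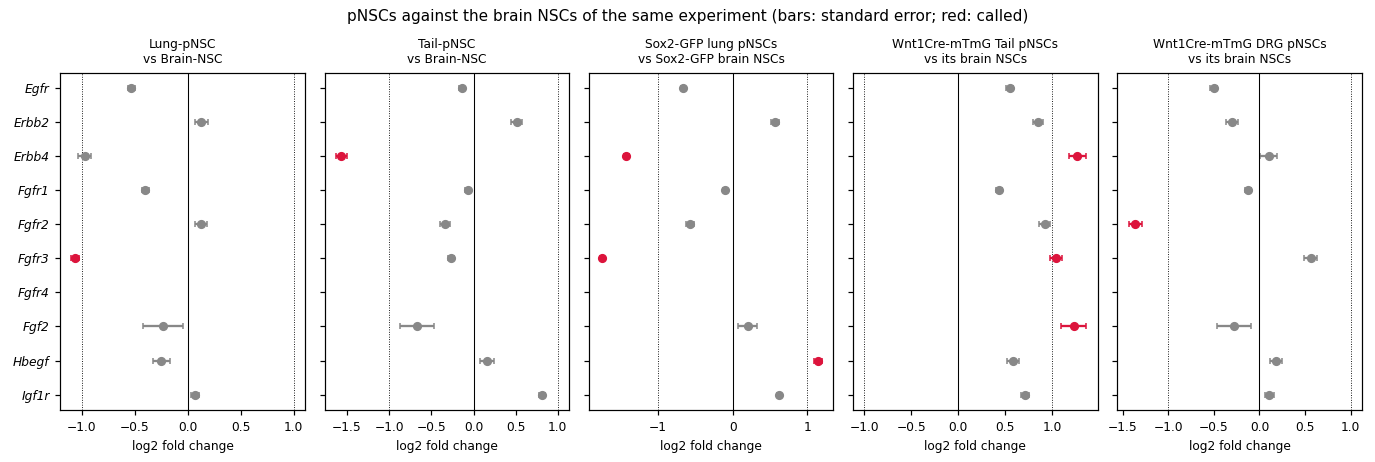
Log2 fold change of the members in 5 pNSC groups against the brain NSCs of the same experiment, with bars for the standard error, dotted lines at -1 and 1, called genes in red and a different range in each panel. Fgfr4, at or near the floor in these samples, is left out. All members shown lie above 0 in the Wnt1Cre-mTmG Tail pNSCs, and Fgfr3 is the receptor called lower in both lung pNSC groups.

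Effects of the same tissue were then set against each other in a fit over all 28 samples. The tail effect differed between the Nes-GFP and Wnt1Cre-mTmG experiments for 4 members, all lower in the former (background 7.05% higher and 8.96% lower of 17393 genes). These were Erbb4 (difference -2.84 ± 0.103), Fgf2 (-1.89 ± 0.249), Fgfr3 (-1.31 ± 0.0679) and Fgfr2 (-1.26 ± 0.0812). For Erbb4 both terms moved: Tail-pNSC was at 33.7 cpm with its brain line at 100, and Wnt1Cre-mTmG Tail pNSCs at 90.7 with theirs at 37.9. The lung effect differed for Hbegf, by -1.38 ± 0.0994 (background 8.24% and 5.89%). Experiment, reporter, clone and, for lung, the age of the mice cannot be told apart in these differences.

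The second question was how pNSCs stood to the cells of their tissue. Both receptors of the EGF family that bind Hbegf rose in each comparison. Tail-pNSC had 5.28-fold more Egfr than Tail (2.40 ± 0.0358) and 15.8-fold more Erbb4 (3.99 ± 0.137). The 4 lower members were Erbb2 (-1.50 ± 0.0511), Fgfr2 (-3.51 ± 0.0456), Fgf2 (-3.57 ± 0.143) and Fgfr4, with 5 counts in the pNSCs and 434 in Tail (-6.61 ± 0.298). The 2 higher and 4 lower calls stand beside 14.1% and 32.6% of all genes. Hbegf did not separate the groups (31.0 and 31.9 against 30.9 and 29.6 cpm, adjusted p = 0.732).

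In Lung-pNSC against Lung, Egfr was 9.35-fold higher (3.23 ± 0.0397), Erbb4 42.0-fold (5.39 ± 0.139) and Fgfr1 2.70-fold (1.43 ± 0.0390). Fgfr2 (-2.29 ± 0.0445), Fgf2 (-3.41 ± 0.127) and Hbegf (-1.47 ± 0.0731) were lower, as was Fgfr4, which had 1 count in the pNSCs and 2902 in Lung. The ratio of Fgfr4 rates was 3290, with an exact 95% counting interval of 589 to 130000. The 3 higher and 4 lower calls stand beside 20.2% and 34.9% of all genes.

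Sox2-GFP lung pNSCs, set against the same Lung samples and so not independent of the preceding values, had 3 higher and 4 lower members (background 21.3% and 34.9%). Those Lung samples were taken to be of the Nes-GFP experiment, so experiment, reporter and cell type cannot be told apart here. Egfr (2.70 ± 0.0315), Erbb4 (5.78 ± 0.104) and Fgfr1 (1.09 ± 0.0311) were higher. Erbb2 (-1.16 ± 0.0495), Fgfr2 (-3.11 ± 0.0397), Fgf2 (-2.77 ± 0.0889) and Fgfr4 (2 counts against 2902, ratio 2740 with an interval of 757 to 22600) were lower. With RLE scaling Fgfr1 came to 1.00, just under the limit, and Fgfr3 went from -0.94 to -1.02, a call, as it did with DESeq2. The median over all genes was -0.16, -0.15 and -0.12 in the 3 tissue comparisons. Endothelial markers (Pecam1, Cdh5, Tek) summed to 3210 to 3260 cpm in Lung and 635 to 653 in Tail against at most 1.90 in NSCs and pNSCs, and fibroblast markers to 45200 to 46500 in Tail and 2710 to 2790 in Lung. Leukocyte markers (Ptprc, Cd68, Tyrobp) summed to 346 to 358 cpm in Lung and 31.6 to 34.1 in Tail against at most 3.60 in NSCs and pNSCs, and muscle markers to 616 to 639 and 379 to 387 against at most 58.8. All markers of these 4 lists were above the floor in both tissues, and their part in the results was not tested. The pNSCs grew with EGF and basic FGF, whereas any culture of Lung and Tail is not given. Medium and cell type therefore cannot be told apart in the 3 tissue comparisons.

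The third question was how neural crest stem cells of the DRG stood to these cells. Against Wnt1Cre-mTmG brain NSCs 4 members were higher and 4 lower, beside 22.1% and 14.8% of all genes. Egfr was 14.3, 14.5 and 12.4 cpm against 503, 522 and 504 (-5.20 ± 0.0502, adjusted p = 6.97e-22). Fgfr3 was 293-fold lower (-8.20 ± 0.140, adjusted p = 7.91e-19), Erbb4 115-fold (-6.85 ± 0.20, adjusted p = 1.4e-15) and Fgfr2 14.7-fold (-3.87 ± 0.0901, adjusted p = 5.46e-17). Without DRG NCSCs replicate 3, which had the highest Fgfr3 and Erbb4 of its group, these became -9.04 for Fgfr3 and -7.59 for Erbb4. Both shifts exceed the SE. The NCSC samples held only 5, 10 and 23 counts of Fgfr3 and 2, 6 and 11 of Erbb4, so the size of these folds is uncertain. Erbb2 (1.98 ± 0.0531), Fgf2 (2.56 ± 0.121), Igf1r (1.27 ± 0.0405) and Hbegf (1.07 ± 0.0626) were higher, and Hbegf fell just under the limit, to 0.995, without that replicate. Fgfr1 was within 1.23-fold (-0.30 ± 0.0327).

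The pNSCs of this experiment were set against the DRG NCSCs as well. Egfr was higher in Wnt1Cre-mTmG Tail pNSCs (5.75 ± 0.0504) and DRG pNSCs (4.70 ± 0.050), as were Fgfr3 (9.24 ± 0.133 and 8.76 ± 0.136), Erbb4 (8.12 ± 0.171 and 6.95 ± 0.198) and Fgfr2 (4.79 ± 0.0807 and 2.51 ± 0.107). Erbb2 (-1.13 ± 0.0461 and -2.28 ± 0.0552) and Fgf2 (-1.33 ± 0.0912 and -2.85 ± 0.127) were lower in both, and Igf1r in the DRG pNSCs (-1.16 ± 0.0403). This gave 4 higher and 2 lower in the tail pNSCs (background 15.3% and 22.6%) and 4 higher and 3 lower in the DRG pNSCs (15.1% and 23.3%). Without DRG NCSCs replicate 3, Erbb4 moved to 8.86 and 7.69 and Fgfr3 to 10.08 and 9.60. The 3 comparisons with DRG NCSCs share those samples. Sox10, a defining factor of neural crest cells, was 792 ± 132 cpm in the NCSCs and 14.5 ± 1.14 in the brain NSCs. Fibroblast markers summed to 2000 to 2470 cpm in the NCSCs against at most 317 in the other groups of that experiment. Leukocyte markers summed to 40.6 to 52.4 cpm in the NCSCs against 0.787 to 2.76 in those groups, where Ptprc and Tyrobp were at the floor, and endothelial markers to 22.1 to 27.5 against at most 1.10. No marker of these 3 lists was at the floor in the NCSCs, and their part in the results was not tested. The NCSCs came from adult mice and the pNSCs from pups, so age and cell type cannot be told apart in that comparison, and whether the medium differed is not given.

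**Figure D4:**
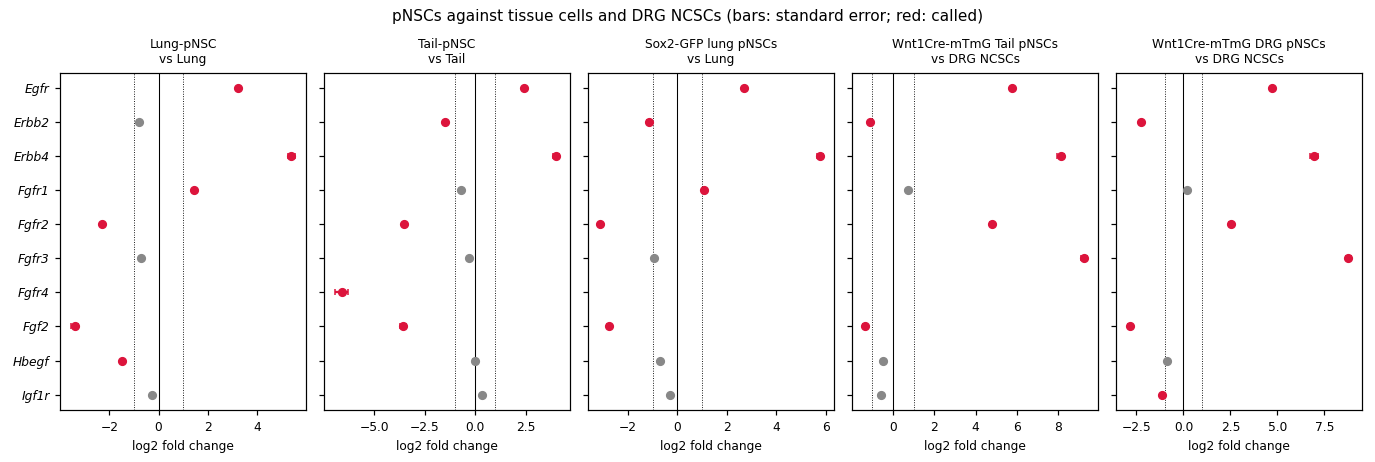
Log2 fold change of the members in pNSCs against Lung, Tail or DRG NCSCs, with bars for the standard error, dotted lines at -1 and 1, called genes in red and a different range in each panel. Fgfr4 is shown for Tail only, since the lung pNSCs held 1 and 2 counts. Egfr and Erbb4 lie to the right in all 5 panels and Fgf2 to the left.

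The 76 other genes of 5 pathway lists were counted in the 6 comparisons with brain NSCs. In Tail-pNSC, where 4.31% of all genes were called higher and 6.59% lower, 1 of 12 tested EGF family genes was called higher and 1 lower, the latter being Tgfa, an Egfr ligand (-1.57 ± 0.114). Of 12 IGF family genes 2 were higher and 1 lower, among them Igf2r, which clears IGF2 (1.15 ± 0.0446), and the IGF binding protein Igfbp2 (-1.08 ± 0.0277). Of 13 FGF family genes 2 were higher and 1 lower, and of 10 heparan sulfate proteoglycans 1 and 1. Of 18 adaptors and inhibitors 1 was higher, Il17rd, an FGF signalling inhibitor (1.35 ± 0.0503). In Lung-pNSC, beside 4.56% and 4.15% of all genes, the calls were 2 of 13 FGF family genes higher, Fgf1 among them at 190 ± 1.48 cpm against 46.6 ± 1.79 (2.02 ± 0.0437), and 1 higher and 1 lower of 12 IGF family genes, Igfbp4 being the higher (2.12 ± 0.0347). None of the 12 EGF family genes, 10 proteoglycans or 18 adaptors and inhibitors was called there.

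In Sox2-GFP lung pNSCs 4 of 18 adaptors and inhibitors were called higher and none lower, the named ones being the MAP kinase phosphatase Dusp6 (1.87 ± 0.0264) and the Sprouty genes Spry4 (1.81 ± 0.0334) and Spry1 (1.24 ± 0.0358), all known as genes switched on by FGF signalling. Over all genes 5.76% were called higher and 9.99% lower. The list's median was 0.36 beside 0.0 over all genes. Of 10 proteoglycans 2 were higher, Sdc1 (1.83 ± 0.0523) and Gpc4 (1.45 ± 0.0506), and 1 lower. Of 9 FGF family genes 1 was higher, the receptor-like Fgfrl1 (1.47 ± 0.0256). Of 10 EGF family genes 2 were higher and 1 lower, and of 11 IGF family genes 1 and 2, with Igfbp3 higher (1.62 ± 0.0203) and Igfbp5 lower (-2.84 ± 0.0300).

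In Wnt1Cre-mTmG Tail pNSCs 6 of 12 IGF family genes were higher and 1 lower, with a list median of 0.76, beside 9.16% and 9.05% of all genes. Igfbp5 was 1831 ± 19.1 cpm against 91.8 ± 1.92 (4.32 ± 0.0731), Igf1 12.3 ± 0.785 against 0.328 ± 0.0346 (5.19 ± 0.197), and Igfbp3 was lower (-1.73 ± 0.0410). Of 12 EGF family genes none was higher and 4 were lower, Tgfa by -1.14 ± 0.0737. Of 8 FGF family genes 4 were higher and 2 lower, Fgf1 by -1.50 ± 0.0513. Of 10 proteoglycans 1 was higher and 3 lower, with Sdc1 at -1.14 ± 0.0610 and Sdc4 at -1.0 ± 0.0560. Of 18 adaptors and inhibitors 1 was higher, Il17rd (1.05 ± 0.0690). The fibroblast and muscle markers named above moved with this group too.

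In Wnt1Cre-mTmG DRG pNSCs 1 of 18 adaptors and inhibitors was higher, the ubiquitin ligase Cbl, which downregulates activated receptors (1.02 ± 0.0589). The EGF family had 1 higher and 1 lower of 12, the FGF family 2 and 1 of 8, the proteoglycans 0 and 1 of 10 and the IGF family 0 and 1 of 12, beside 3.12% and 6.41% of all genes.

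In DRG NCSCs 6 of 12 EGF family genes were higher than in brain NSCs and 1 lower, where 22.1% of all genes were higher and 14.8% lower. Erbb3, the neuregulin receptor of the crest and Schwann lineage, rose by 10.83 ± 0.119 on the log2 scale, and the Egfr ligands Btc (6.71 ± 0.165) and Areg (2.01 ± 0.177) rose while Egfr itself fell. Of 8 FGF family genes 5 were higher and 1 lower, Fgf5 going from 0.262 ± 0.163 to 147 ± 4.30 cpm (9.06 ± 0.160) and Fgf1 falling (-1.19 ± 0.0506). Of 12 IGF family genes 7 were higher and 2 lower, with Igf1 (6.18 ± 0.174) and Igfbp7 (5.81 ± 0.117) up and Igfbp2 down from 1636 ± 14.0 to 4.44 ± 1.41 cpm (-8.54 ± 0.0966). Of 10 proteoglycans 4 were higher and 3 lower, with Gpc3 (4.06 ± 0.149), Gpc1 (2.90 ± 0.0362) and Sdc1 (2.07 ± 0.0525) up. Of 18 adaptors and inhibitors 2 were higher and 5 lower, with Shc1 up (2.08 ± 0.0542) and the FGF-responsive Etv4 (-2.51 ± 0.0429) and Spry1 (-2.01 ± 0.0566) down. All these named genes had adjusted p-values of at most 1.05e-08.

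Finally, the genes whose group means were most like each member were looked up among 13294 genes, by Pearson's r of log2(cpm + 1) over the 11 groups. These values are a description, since the groups share samples, depth and culture conditions. Entpd6 was most like Egfr (r = 0.982), Hes5, a Notch target of neural progenitors, most like Erbb4 (0.988), Ccdc85c most like Fgfr3 (0.975) and Mrps26 most like Fgfr1 (0.966). The basement membrane proteoglycan Hspg2 was most like Erbb2 (0.973), the Wnt receptor Fzd5 most like Fgfr2 (0.956) and the mesenchymal receptor Pdgfrb most like Fgf2 (0.987). Hbegf had the lowest value for its nearest gene, Pvr (0.884). The values for Fgfr4 (Edn1, Myct1 and Cnn1, each at 1.00) rest on the Lung and Tail groups, the only ones well above the floor. Igf1r, whose means lay less than 4-fold apart, was not looked up.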

How the data were processed

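Poly(A) RNA of 28 mouse samples was sequenced as single-end reads. Per the study's methods, the authors aligned the reads to GRCm38 with HISAT2, used Cufflinks, and deposited raw counts per gene from htseq-count. The annotation release and the strand setting are not given in the sources used here. Groups and replicate numbers came from the sample titles. From the counts, edgeR 4.0.16 (R 4.3.3) was run per experiment over all its groups, with TMM scaling, filterByExpr (minimum count 10, minimum total count 15), the quasi-likelihood test and Benjamini-Hochberg adjustment over all genes tested. A gene was called at an adjusted p below 0.05 with a log2 fold change of 1 or more in size. Differences between experiments were contrasts in 1 fit over all samples. The Lung samples entered both the Nes-GFP and the Sox2-GFP fits. The script was tested on simulated data. No fold is given for Fgfr4 where every library held under 10 counts.

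The 10 genes, the lists and the tests were chosen with earlier results of these data known. Of each list, at most 3 called genes per comparison with a mean of at least 10 cpm in a compared group are named, those of largest fold change. For the pattern search, the nearest gene by r is named for members with group means at least 4-fold apart. Gene lengths are unions of GENCODE M21 exons, and positions and promoters are RefSeq GRCm38.p6. Depth was 9808246 to 22637031 counts, and counting intervals and floors cover counting error only. Alternatives were RLE and upper-quartile scaling, DESeq2 1.42.0, no filter, a replicate block, the compared groups alone, no limit on fold change and leaving out each replicate. Part of the marker results is not reported here.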

Additional observations from a re-analysis of the deposited data

Results flagged for a closer look

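For 5 values, effects differed between experiments by the test of the difference itself (edgeR, fit over all 28 samples, effects of pNSCs over brain NSCs, adjusted over 17393 genes). For the tail effect, Nes-GFP minus Wnt1Cre-mTmG, Erbb4 differed by -2.84 ± 0.103 on the log2 scale (adjusted p = 1.87e-23), Fgf2 by -1.89 ± 0.249 (adjusted p = 3.82e-08), Fgfr3 by -1.31 ± 0.0679 (adjusted p = 7.94e-19) and Fgfr2 by -1.26 ± 0.0812 (adjusted p = 5.9e-16). For the lung effect, Nes-GFP minus Sox2-GFP, Hbegf differed by -1.38 ± 0.0994 (adjusted p = 1.38e-14). Each experiment used its own brain line. Erbb4 was 100 cpm in Brain-NSC and 37.9 in Wnt1Cre-mTmG brain NSCs, the lines behind the tail difference, and Hbegf was 28.1 cpm in Brain-NSC and 18.2 in Sox2-GFP brain NSCs, those behind the lung difference. Their part in the differences was not tested separately.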

How the results depend on the processing

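Of 1546 values of single genes recomputed under the alternatives, 1486 kept their direction and their side of the threshold. A further 56 became calls and 2 lost theirs, and those among them that are not due to dropping the limit on fold change are named in the report. Hbegf in Tail-pNSC against Tail, close to 0, turned to 0.018 with upper-quartile scaling and ranged from -0.057 to 0.001 with 1 replicate left out at a time. With no limit on the fold change the number of members called rose to 7 for Tail-pNSC and 6 for Lung-pNSC against Brain-NSC, to 9 for Wnt1Cre-mTmG Tail pNSCs and 6 for DRG pNSCs against their brain NSCs, to 8 for Sox2-GFP lung pNSCs against brain NSCs, and to 8 for each of the differences of the tail and the lung effect. That setting calls small folds by its construction. The share of all genes it calls was not counted, so these numbers have no background beside them. Leaving out 1 replicate at a time gave 1 to 2 calls in Tail-pNSC against Brain-NSC, 7 to 8 in DRG NCSCs against brain NSCs, and 3 to 4 in Sox2-GFP lung pNSCs against brain NSCs, where Fgfr4, at or under 3 counts in every sample, was the added call without lung pNSC replicate 2.

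Same-numbered samples of compared groups did not deviate together (correlations of -0.011 to 0.0519 over genes), so the numbers were not taken as pairs. With the replicate block the number of members called was the same in every comparison, for example 1 in Tail-pNSC against Brain-NSC and 8 in DRG NCSCs against brain NSCs. Depth limits Fgfr4 outside Lung and Tail, and Erbb4 and Fgfr3 in DRG NCSCs.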
